A study of Rattus norvegicus with 8 samples.

Results

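miR-22 was measured in the exosomes of 2 kinds of rat intervertebral disc cell, as its 2 mature arms rno-miR-22-3p and rno-miR-22-5p. The arms were chosen by name: every rat row whose mature name, without the suffix for trimmed or changed bases, was miR-22-3p or miR-22-5p, with counts summed per name. Each arm had 1 row, so miR-22 made up 2 of the 1512 rows and 2 of the 415 rat mature names in the deposited table. Both passed the filter on low counts and were among the 390 names tested. Exosomes are small membrane vesicles that cells release. One group, NPC, held 4 libraries of vesicles shed by nucleus pulposus cells, which fill the soft centre of the disc. The other, NPPC, held 4 libraries of vesicles shed by progenitor cells of the nucleus pulposus. For neither group did the labels give a treatment, age, strain or passage, and nothing in them tells whether libraries came from separate animals or cultures. P-values here rest on library-to-library spread alone, and that spread may be technical. Disc cell identity could not be checked against defining markers, since only small RNA was counted.

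A miRNA gene is transcribed as a precursor that folds into a hairpin, and enzymes cut out a duplex of its 2 arms. As a rule 1 arm is kept in an Argonaute protein and guides it to messenger RNAs that pair with the arm's seed, bases 2 to 8 from the 5′ end, while the other arm is mostly degraded. miR-22-3p is the guide arm in most tissues. It is known to accumulate in senescent fibroblasts, where it represses SIRT1, CDK6 and SP1, and it was described in osteoarthritic cartilage as a repressor of PPARA and BMP7.

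Both mature arms were found in RefSeq (assembly GRCr8). They are shown because the results compare them, with the seed in capitals:
rno-miR-22-3p: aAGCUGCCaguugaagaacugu
rno-miR-22-5p: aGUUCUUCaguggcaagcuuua
The seeds differ, so the arms address different messenger RNAs. The deposited 3p row held the RefSeq sequence. The deposited 5p row was 1 base shorter at the 3′ end, with an unchanged seed, and is written here with T for U as in the table:
rno-miR-22-5p, deposited row: aGTTCTTCagtggcaagcttt
In the deposited table both arms come from 1 hairpin on chromosome 10, 62299578 to 62299688, plus strand. The sources used here name no genome build for these coordinates. The hairpin is printed with both counted arms in capitals, the 5p arm first:
rno-mir-22 hairpin: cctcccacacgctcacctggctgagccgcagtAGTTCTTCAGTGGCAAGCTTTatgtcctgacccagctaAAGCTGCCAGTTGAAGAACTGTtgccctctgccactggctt
In the fold that the table gives for it, 19 bases of the 5p arm pair with bases of the 3p arm. The 17 bases between the arms include the last base of the RefSeq 5p arm. In the RefSeq gene table of GRCr8, Mir22 stands next to Mir6326, between the protein-coding genes Wdr81 and Tlcd2. Neither arm's sequence occurred in a second row, and all of their counts were whole numbers. The counts thus gave no sign of reads divided among rows, though whole numbers cannot exclude it.

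The libraries differed in ways that touch miR-22. Totals ran from 329010 to 681592 counts in NPC and from 819844 to 1416938 in NPPC libraries, so every NPPC library was deeper. NPC replicate 1 stood apart: its TMM factor, which adjusts for composition, was 1.64, where the other 7 lay between 0.872 and 1.01. Within each library the deviation of the 278 tested rat names from their own means was set against their GC percent, across names that are not independent. Spearman's rho was 0.855 in NPC replicate 1 and -0.0469, -0.555 and -0.182 in NPC replicates 2 to 4. It was -0.335, -0.610, -0.516 and -0.624 in NPPC replicates 1 to 4. The means include NPC replicate 1, so its trend pushes the values of the other libraries the opposite way. The 3p arm has 45.5% GC and the deposited 5p arm 42.9%. miRNAs known from blood, liver, muscle, endothelial, neural and epithelial cells (17 of 18 listed were in the table) summed to 956 to 2033 CPM in NPC and 1071 to 2616 CPM in NPPC libraries. Of the 17, 6 were at 0 in no library, among them the erythrocyte miR-451-5p and the liver miR-122-5p, and 11 were at 0 in at least 1. Of the neural markers miR-124-3p was at 0 in 3 NPC and 4 NPPC libraries and miR-9a-5p in 1 NPC and 0 NPPC libraries. The part of these markers in the results was not tested.

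The guide arm miR-22-3p was an abundant miRNA of both kinds of exosome and differed little between them. It held 10133, 12208, 8171 and 7921 counts in NPC replicates 1 to 4, and 15582, 15833, 19742 and 18285 counts in NPPC replicates 1 to 4. Scaled by the TMM factors to counts per 1000000 (CPM), these were 18814.5, 20150.2, 13754 and 15229.7 CPM in NPC and 18780.4, 15616, 15605 and 15856 CPM in NPPC exosomes. The ranges overlapped, and the highest and the lowest level both belonged to NPC libraries. The mean level was 16987 ± 2994 CPM in NPC exosomes and 16464 ± 1549 CPM in NPPC exosomes (SD, n = 4 each). The log2 fold change of NPPC over NPC was -0.045 ± 0.16 (SE), with a Benjamini-Hochberg adjusted p of 0.894 over 390 names (quasi-likelihood test of edgeR, two-sided). Its 95% interval ran from -0.41 to 0.32, that is from 0.752-fold to 1.25-fold. Differences within these bounds are compatible with these libraries. The bounds are not a limit of detection for the test over all names. The sign of the fold change was not stable, as it turned in 9 of 22 alternative settings.

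As a share of all counts in a library, miR-22-3p took 3.08% in NPC replicate 1, with an exact 95% binomial interval of 3.02% to 3.14%. It took 1.97%, 1.20% and 1.47% in NPC replicates 2 to 4, and 1.90%, 1.45%, 1.39% and 1.39% in the NPPC libraries. Such intervals cover counting error only, since reads without molecular identifiers are not independent molecules. The share of NPC replicate 1 lay above those of all other libraries, while its CPM lay below that of NPC replicate 2. With total count scaling in place of TMM factors the log2 fold change of miR-22-3p was -0.33, while the median over all names tested moved from -0.038 to -0.29.

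Among the 278 rat names tested miR-22-3p ranked 11 by mean CPM over the 8 libraries, and its rank within a library ran from 7 in NPC replicate 1 to 18 in NPC replicate 3. Just above it stood miR-26a-5p, with 17129 ± 5799 CPM (SD, n = 8), and just below it miR-99a-5p, with 16016 ± 2048 CPM (SD, n = 8). miR-22-3p itself had 16726 ± 2224 CPM (SD, n = 8). These 3 mean levels lay within 1 SD of each other, and their order within libraries was not tested. Mature miRNAs have nearly the same length, so CPM serves here as a level per molecule, apart from unequal capture of sequences in library preparation.

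The passenger arm miR-22-5p was rare, and its level was higher on average in NPPC exosomes without passing the test over all names. It had 32, 93, 45 and 54 counts in NPC replicates 1 to 4 and 141, 216, 167 and 180 counts in NPPC replicates 1 to 4. The scaled levels were 59.4, 154, 75.7 and 104 CPM in NPC and 170, 213, 132 and 156 CPM in NPPC exosomes. The groups overlapped, because NPC replicate 2 lay above NPPC replicate 3, and the other 3 NPC libraries lay below every NPPC library. The mean level was 98.1 ± 41.2 CPM in NPC exosomes and 168 ± 34.0 CPM in NPPC exosomes (SD, n = 4 each).

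The log2 fold change of miR-22-5p was 0.77 ± 0.33 (SE), a 1.71-fold difference, with a 95% interval from 0.0061 to 1.54. The unadjusted p of edgeR's quasi-likelihood test was 0.0486 and the Benjamini-Hochberg adjusted p over 390 names was 0.458. Of all names tested 41, or 10.5%, had an unadjusted p under 0.05, and 4.1% had such a p with a higher level in NPPC exosomes. Correcting each library for GC content lowered the log2 fold change to 0.29 (adjusted p = 0.826, edgeR). miR-22-5p ranked 153 among the 278 rat names, with miR-340-5p at 133 ± 56.4 CPM (SD, n = 8) just above it and miR-708-5p at 130 ± 18.9 CPM (SD, n = 8) just below. Its own level was 133 ± 51.1 CPM (SD, n = 8), within the spread of these neighbours over libraries. The order of these levels within libraries was not tested.

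**Figure D1:**
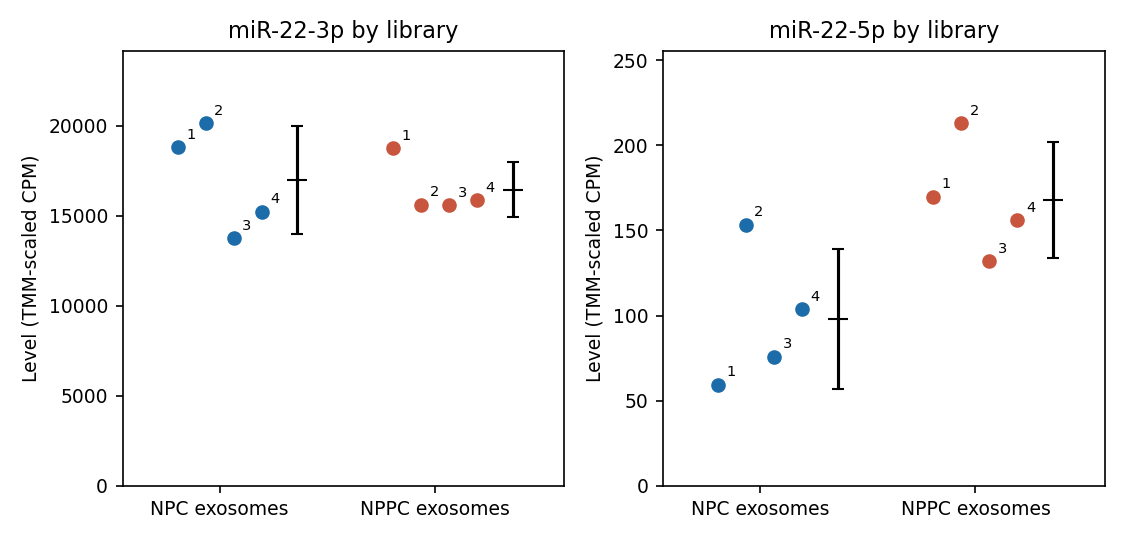
Level of miR-22-3p (left) and miR-22-5p (right) in TMM-scaled CPM, 1 point per library numbered by replicate, with the group mean and SD (n = 4) as a black bar beside the points. The 3p levels of both groups overlap between 15605 and 18780.4 CPM, and the 5p levels of the groups touch only through NPC replicate 2 at 154 CPM.

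Of all miR-22 counts in a library the 5p arm took the larger share in NPPC exosomes. A share within a library needs no scaling between libraries. The 5p arm took 0.315%, 0.756%, 0.548% and 0.677% of miR-22 counts in NPC replicates 1 to 4. In NPPC replicates 1 to 4 it took 0.897%, 1.35%, 0.839% and 0.975%. All NPPC shares were above all NPC shares, and the group means were 0.574% ± 0.193 in NPC and 1.01% ± 0.228 in NPPC exosomes (SD, n = 4 each). The nearest libraries were not resolved by their counts: the exact 95% binomial interval was 0.611% to 0.925% in NPC replicate 2 and 0.717% to 0.975% in NPPC replicate 3.

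Put as a ratio, there were 317, 131, 182 and 147 counts of miR-22-3p for each count of miR-22-5p in NPC replicates 1 to 4. The ratios were 111, 73.3, 118 and 102 in NPPC replicates 1 to 4. The mean log2 ratio was 7.51 ± 0.56 in NPC against 6.63 ± 0.31 in NPPC exosomes (SD, n = 4 each), a difference of -0.88. A two-sided exact permutation test of this difference gave p = 0.0286, the smallest that 70 arrangements of 4 against 4 libraries can give. The ratio thus moved by 1.84-fold, and the 3p arm remained the dominant arm in all 8 libraries.

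The libraries carry replicate numbers in their titles, and the ratio was also compared within numbers. It was lower in the NPPC library in 4 of 4 pairs, by 0.53 to 1.52 on the log2 scale. The exact sign-flip p was 0.125, the smallest that 4 pairs can give. Every NPPC ratio lay below every NPC ratio, so any pairing would give the same count and p. The comparison within numbers therefore adds no support. The exact permutation p was not below 0.05 when any of the NPPC libraries was left out. It was 0.0571 without NPPC replicate 1, 3 or 4 and 0.0857 without NPPC replicate 2. The difference itself then ran from -0.96 to -0.73. Each NPC library could be left out at an exact permutation p of 0.0286, the smallest that 3 against 4 libraries can give. Leaving a library out cannot make separate groups overlap, so these p-values add little support. Without NPC replicate 1, whose ratio was the highest, the difference was -0.61 with an exact permutation p of 0.0286. Depth was higher in every NPPC library, so a relation of the arm share to depth cannot be told apart from the groups. After the GC correction the difference was -0.64 (exact permutation p = 0.0286).

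**Figure D2:**
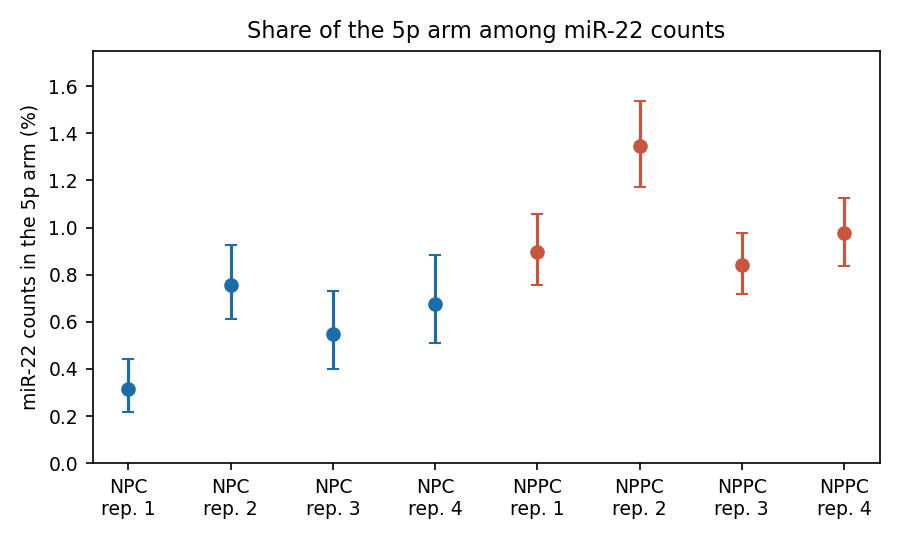
Share of the 5p arm among the miR-22 counts of each library, in percent, with its exact 95% binomial interval as bars that cover counting error only. The 4 NPPC libraries lie between 0.839% and 1.35%, above the NPC libraries at 0.315% to 0.756%.

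The arm ratio of miR-22 was set beside those of all 69 rat hairpins of which both arms, matched by name, were tested. With 0.5 counts added to each arm, the median size of the log2 ratio over hairpins was 3.08, and miR-22 with 7.06 ranked 13 from the most one-sided. The 3p arm was the major arm in 30 hairpins and the 5p arm in 39. The groups did not overlap in 5 hairpins, or 7.25% of them, and in all 5 the 3p arm was the major arm and had the smaller part in NPPC exosomes. Besides miR-22 these were miR-106b, of a cluster that promotes proliferation, with a difference of -0.91, miR-28 with -0.76, miR-345 with -1.01 and miR-674 with -1.06. They were chosen by this lack of overlap, and the difference of miR-22 on this scale was -0.87.

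Adjusted by Benjamini-Hochberg over the 69 hairpins, the exact permutation p of miR-22 was 0.394, the lowest value reached by any of them. The difference for miR-22 therefore does not pass over all hairpins, and with 5 hairpins at the smallest possible p it could not have passed. Its unadjusted p was already the smallest possible, as in 5 hairpins in all, so no larger difference could have lowered the adjusted value. The adjustment thus does not show that the arm ratio of miR-22 is unchanged. Its size ranked 22 of the 69, where the median size of the difference was 0.56. The major arm lost ground to the minor one in NPPC exosomes in 40 of the 69 hairpins, with a median change of -0.22. Without NPC replicate 1, left out after the data were seen, the groups did not overlap in 9 hairpins, or 13.0%. Leaving a library out cannot make separate groups overlap, so miR-22 had to stay among them and the count could not fall.

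**Figure D3:**
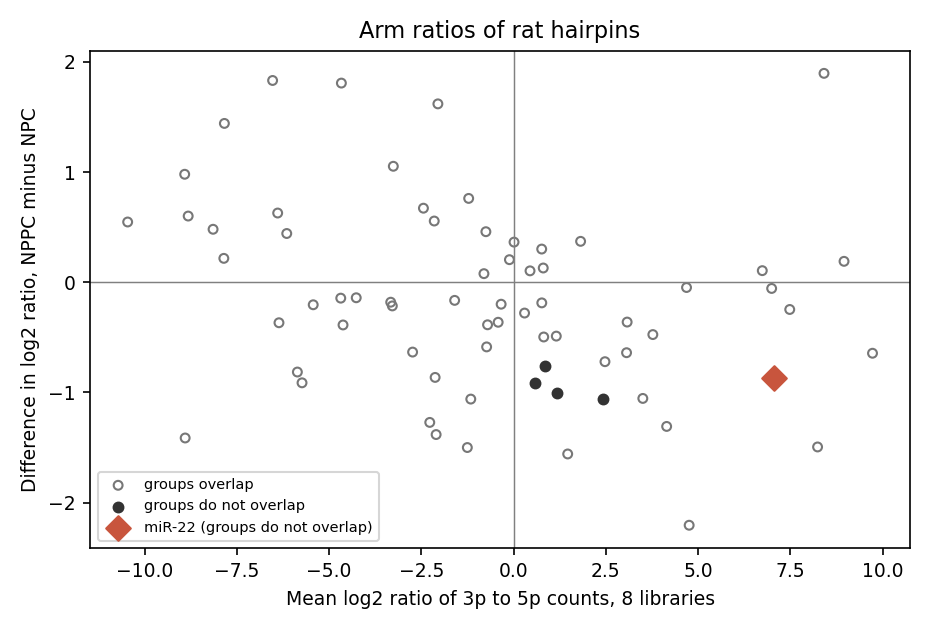
Each point is 1 of 69 rat hairpins. The horizontal axis gives its mean log2 ratio of 3p to 5p counts over 8 libraries and the vertical axis the difference in that ratio, NPPC minus NPC. miR-22 (diamond) lies at 7.06 and -0.87, and the 4 other hairpins without overlap between groups (filled) lie closer to equal arms.

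Whether the arms followed each other across libraries depended on NPC replicate 1. The Pearson correlation of their log2 CPM over the 8 libraries was 0.12, and 0.57 without NPC replicate 1. This is a description of 8 libraries that share depth, group and GC trends. NPC replicate 1 held the second highest CPM of miR-22-3p and the lowest of miR-22-5p.

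Among 165 other rat names with a mean of at least 100 CPM, the 5 most like miR-22-3p by the Pearson correlation of log2 CPM over 8 libraries were miR-125a-5p (r = 0.80), miR-134-5p (0.79), miR-339-5p (0.75), miR-24-3p (0.75) and miR-151-3p (0.71). Their GC percent lay above the 45.5% of miR-22-3p. Without NPC replicate 1 the correlation of miR-24-3p, which represses cell cycle genes, was 0.85 and the highest of all, and the other 4 had 0.67 to 0.77. The 5 most like miR-22-5p were miR-106b-5p (r = 0.83), miR-29a-3p (0.82), miR-126a-5p (0.82), miR-15b-3p (0.82) and miR-362-5p (0.78), with GC between 38.1% and 42.9%. Without NPC replicate 1 these 5 had 0.55 to 0.74 and ranked from 8 to 24. The lists for the 2 arms shared no name, which 2 lists of 5 out of 165 names would mostly show by chance.

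The neighbourhood of the hairpin held further miRNAs. Within 1 Mb in the deposited coordinates lay the hairpins of miR-132, miR-212 and miR-423. Also there were 3 rows of predicted candidates, some sharing a window, that were too rare to be tested. miR-132 and miR-212 are a pair known from neurons, induced by CREB, and their 3p arms share a seed that differs from both seeds of miR-22:
rno-miR-132-3p: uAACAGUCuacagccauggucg
rno-miR-212-3p: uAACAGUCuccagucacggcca
miR-132-3p had 401, 193, 131 and 213 CPM in NPC replicates 1 to 4 and 139, 290, 176 and 214 CPM in NPPC replicates 1 to 4. The groups overlapped, with a log2 fold change of -0.20 ± 0.38 (SE), which was 0.21 without NPC replicate 1. miR-212-3p had 79.4 ± 26.3 CPM in NPC and 74.6 ± 14.8 CPM in NPPC exosomes (SD, n = 4 each). The 5p arms of both were rarer, with 20.7 ± 6.43 and 29.2 ± 2.93 CPM (SD, n = 4) for miR-132-5p in NPC and NPPC exosomes, and 41.7 ± 4.37 and 47.6 ± 15.4 CPM (SD, n = 4) for miR-212-5p.

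miR-423, a miRNA common in serum, had 2944 ± 914 CPM of its 5p arm in NPC and 2025 ± 509 CPM in NPPC exosomes (SD, n = 4 each). Its log2 fold change was -0.54 ± 0.26 (SE). Its 3p arm had 2546 ± 842 and 1976 ± 195 CPM (SD, n = 4) in the same order. None of these 6 arms passed edgeR's quasi-likelihood test, with Benjamini-Hochberg adjusted p between 0.458 and 0.896, where 1 of 390 names, or 0.256%, passed. miR-22-3p was the most abundant miRNA of this neighbourhood in all 8 libraries.

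No other rat row carried the seed of either arm. The seed of miR-22-3p occurred in 2 further rows, both with opossum names. The first differed from the rat arm by 1 substitution at the last base, T22C, counted from 1 at the 5′ end of the arm, and its deposited window lay on the same rat hairpin. It held 19, 30, 30 and 16 counts in NPC replicates 1 to 4 and 50, 54, 70 and 68 counts in NPPC replicates 1 to 4. These counts were 0.188% to 0.367% of those of miR-22-3p in NPC and 0.321% to 0.372% in NPPC libraries. The ranges overlapped. The second row added G21C to T22C and held 5 counts in each of NPPC replicates 3 and 4 and 0 in the other 6 libraries. Summed under their shared name, these rows stood at 41.5 ± 9.99 CPM in NPC against 59.0 ± 4.21 CPM in NPPC exosomes (SD, n = 4 each), without overlap. Of all names tested 6.15% had such a gap with a higher level in NPPC, 4.62% with a lower level, and 10.8% in either direction. The log2 fold change of the sum, 0.50 ± 0.29 (SE), did not pass edgeR's quasi-likelihood test (adjusted p = 0.510).

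A pair of lists gives the setting of miR-22 among miRNAs of its best known fields. They were chosen with earlier results of these data known and support no direction by themselves. Of 30 miRNAs linked to senescence 27 were in the table and 24 were tested. Of these 1 passed over all names by edgeR's quasi-likelihood test, 8 had an unadjusted p under 0.05 with a higher level in NPPC exosomes and 1 with a lower level. Among all 278 rat names these counts were 16 higher and 9 lower. The median of the list's log2 fold change was 0.56, with 18 of 24 above 0. Over all rat names tested the median was 0.19, with 167 of 278 above 0. Without NPC replicate 1 the medians were 0.40 for the list and 0.084 for rat names. The list does not separate its members by the direction of their link to senescence. It includes miR-106b-5p, of a cluster that promotes proliferation, among the higher ones. Its counts and median are therefore no measure of senescence.

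The senescence member that passed was miR-146a-5p, which restrains NF-kappaB signalling and the inflammatory secretion of senescent cells. It rose by 3.38 ± 0.48 (SE) on the log2 scale with an adjusted p of 0.0318 (edgeR, Benjamini-Hochberg). With the replicate block the fold change was 3.53 with an adjusted p of 0.0531, and with the block and the GC correction it was 2.90 with an adjusted p of 0.00013. No row passed with rows as deposited. Of the 8 fits with a library left out, with fold changes of 3.08 to 3.65, it passed only without NPC replicate 1. Its adjusted p ran from 1.48e-11 to 0.200 over 20 alternatives. DESeq2's Wald test called miR-16-5p, named for that result, besides miR-146a-5p. The 3 most abundant members were miR-21-5p at 0.53 ± 0.55 (SE), miR-125b-5p at 0.10 ± 0.13 (SE) and miR-29a-3p, which represses collagen genes, at 0.59 ± 0.28 (SE). The fold change of miR-29a-3p was -0.046 after the GC correction and that of miR-125b-5p was -0.17 with total count scaling. miR-22-3p, at -0.045, lay below the list's median, and miR-22-5p, at 0.77, above it.

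Of 25 miRNAs linked to cartilage 24 were in the table and 21 were tested, and 0 passed by edgeR's quasi-likelihood test, with 1 at an unadjusted p under 0.05, as had 25 of the 278 rat names. That one, named after its value was seen, was the cartilage miRNA miR-140-3p at -0.66 ± 0.17 (SE). DESeq2's Wald test also called 0 of them, and the replicate block with the GC correction called 1, miR-148a-3p, also named for that result. Their median log2 fold change was 0.19, with 13 of 21 above 0, the same to 2 decimals as that of rat names. Without NPC replicate 1 the median was -0.0020 and 7 had an unadjusted p under 0.05, as had 54 of 290 rat names in the same fit. The most abundant were the mesenchymal miR-199a-3p, with 0.12 ± 0.30 (SE), miR-199a-5p, with -0.13 ± 0.11 (SE), and miR-27b-3p, with -0.044 ± 0.14 (SE). Total count scaling brought miR-199a-3p to -0.0055, and the authors' scaling brought miR-27b-3p to 0.029. The fold change of miR-22-3p was nearly the same as that of miR-27b-3p and its interval included the list's median.

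**Figure D4:**
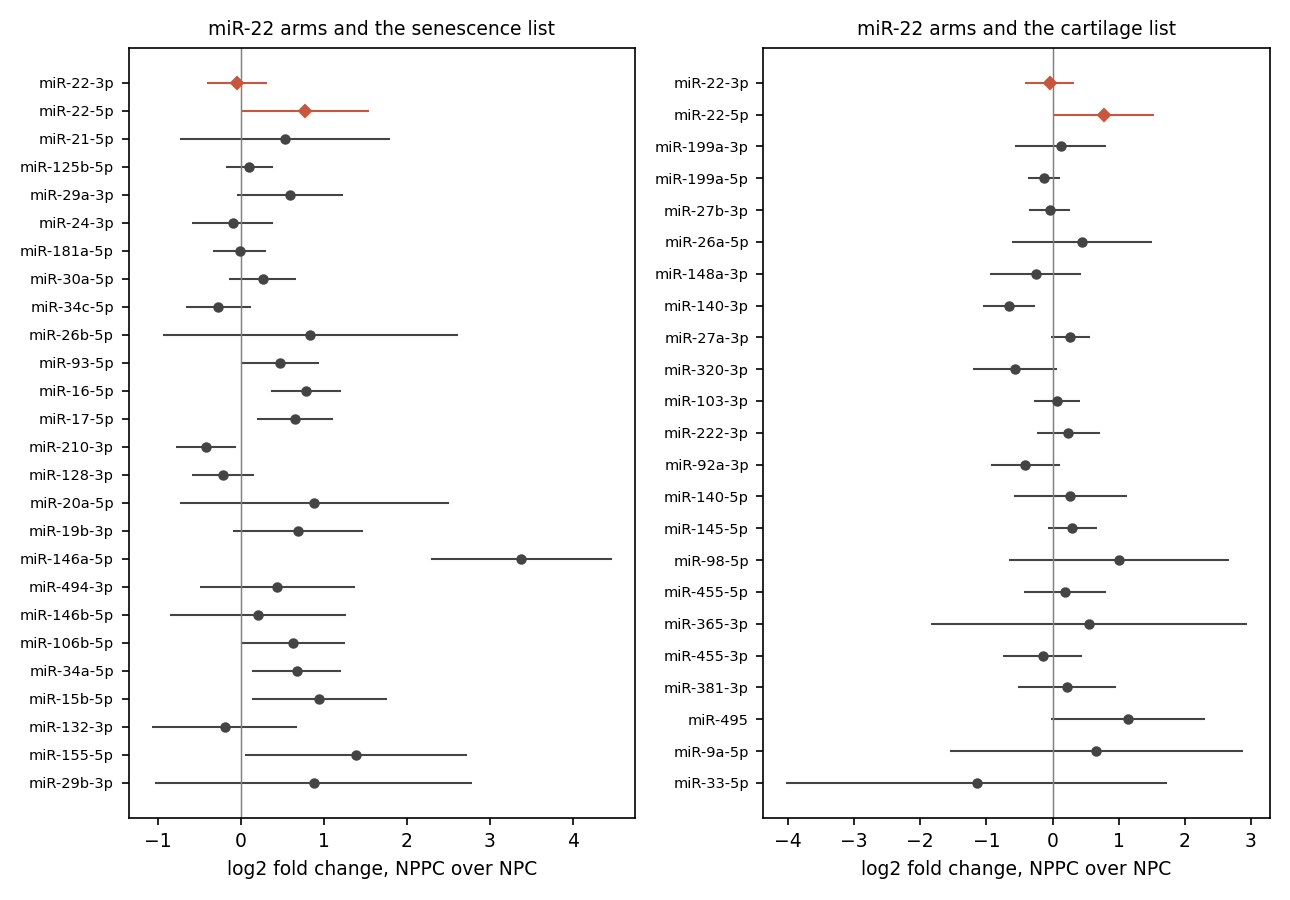
Log2 fold change of NPPC over NPC with its 95% interval for both miR-22 arms (diamonds) and for the tested members of the senescence list (left, 24 miRNAs) and the cartilage list (right, 21 miRNAs), each ordered by mean CPM. miR-22-3p lies at -0.045 and miR-22-5p at 0.77, and the interval of miR-146a-5p lies furthest above 0.

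Across 22 alternative settings neither arm passed over all names. The log2 fold change of miR-22-3p lay between -0.41 and 0.067 and that of miR-22-5p between 0.29 and 1.08. In each setting miR-22-5p had the higher fold change of the 2 arms.

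**Figure D5:**
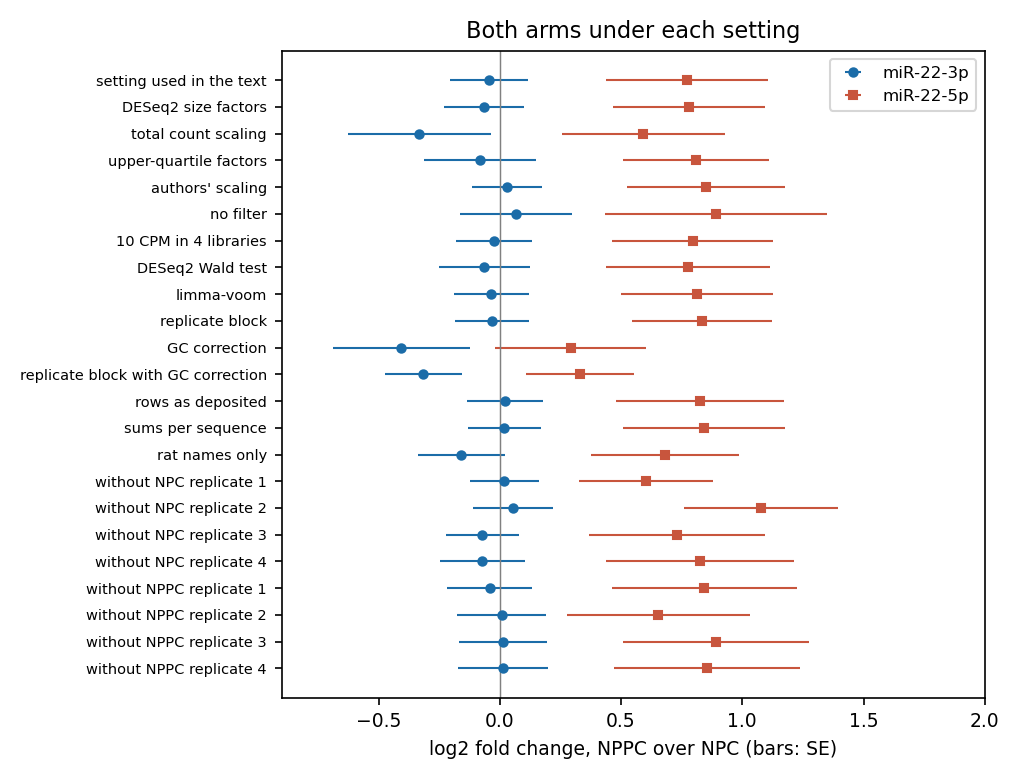
Log2 fold change of NPPC over NPC for miR-22-3p (circles) and miR-22-5p (squares) under the setting used in the text and 22 alternatives, with the SE as bars. miR-22-3p stays near 0 except after the GC correction and with total count scaling, and miR-22-5p stays above 0 with its lowest value of 0.29 after the GC correction.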

How the data were processed

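Small RNA from exosomes was sequenced in 8 libraries, 4 per group. Per the labels' protocols RNA came from an exosome RNA isolation kit and libraries from an Illumina TruSeq small RNA kit. The submitters' processing notes name CASAVA 1.8. What aligner, genome build or miRBase version was used is not given in the sources used here. Each row holds an estimated count, as the authors deposited it (82.3% of values above 0 were whole), and a deposited scaled signal, equal to the count times a factor per library, which was used only as the authors' scaling.

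Groups and replicate numbers came from the titles. Counts were summed per species prefix and mature name, rounded, and tested over all names passing filterByExpr with edgeR 4.0.16 in R 4.3.3 (TMM factors, two-sided quasi-likelihood test, group as the only term, Benjamini-Hochberg adjustment, threshold 0.05). log2 CPM used a prior count of 2. Intervals of shares are Clopper-Pearson. Arm ratios were compared by exact permutation over libraries with Python 3.11.15, numpy 2.4.6, pandas 2.3.3 and scipy 1.17.1. Figures used matplotlib 3.10.9. The scripts were tested on simulated data. Deviations of same-numbered libraries from their group means correlated at 0.565, 0.116, 0.366 and 0.242 for numbers 1 to 4 over the names tested. Those of unlike numbers lay between -0.483 and 0.355, and for numbers 2 and 4 some exceeded the same-number value. The pairing was used as an alternative because all 4 were above 0.1. Some pairs of unlike number also passed that cut, so it cannot show that the pairing is real. No label says what a number marks.

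The members and lists were chosen with earlier results of these data known. Names in the text, besides both arms, are the 5 most correlated rat names of at least 100 CPM per arm, the abundance neighbours, miRNAs within 1 Mb, rows with a shared seed, and of each list the 3 most abundant members and those that passed. Hairpins named for their arm ratio, the abundance neighbours of miR-22-5p and the adjustment over hairpins were added after the values were seen. So were both arms of miR-140. Alternatives were other scalings, filters, DESeq2 1.42.0, limma 3.58.1 with voom, a replicate block, a GC correction (loess, span 0.75), other groupings of rows, and each library left out.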

Additional observations from a re-analysis of the deposited data

Results flagged for a closer look

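Levels of the named miRNAs gave 56 sets of 4 libraries, and in 3 of these sets a single library stood far off. By chance about 1 in 20 would. In NPPC replicate 1 miR-22-3p stood at 18780.4 CPM, where the other NPPC libraries lay between 15605 and 15856 CPM. miR-423-5p stood at 2788 CPM in the same library, with the others between 1754 and 1803 CPM. In NPC replicate 1 miR-106b-5p stood at 150 CPM, with the others between 308 and 335 CPM. The row with an opossum name and the seed of miR-22-3p lies outside the rat names and held counts in every library, from 16 to 70, above the 3 counts that a count of 0 allows.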

How the results depend on the processing

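The log2 fold change of miR-22-3p turned to 0.029 with the authors' scaling, 0.067 without a filter, 0.022 with rows as deposited and 0.019 with sums per sequence, and ran from -0.072 to 0.054 with a library left out. It did not pass in any of the 22 alternatives. That of miR-22-5p kept its direction in all 22, from 0.60 to 1.08 with a library left out, and did not pass in any. The replicate block gave -0.032 for miR-22-3p and 0.83 for miR-22-5p. Combined with the GC correction it gave -0.31 and 0.33, with adjusted p of 0.386 and 0.494. The block changed neither call.

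The difference in arm ratio was -0.88 with the replicate block (exact sign-flip p = 0.125) and -0.66 without both libraries numbered 1 (exact permutation p = 0.100, the smallest that 3 against 3 can give), an alternative chosen after seeing the data. With a library left out it ran from -1.04 to -0.61. The sign-flip p is the smallest that 4 pairs allow, and without overlap between groups any pairing gives it. In this balanced design the block cannot change the mean difference, so this alternative is no check of it. With so few libraries the exact permutation p moves in coarse steps, and leaving a library out cannot make separate groups overlap. What made the difference larger or smaller with a library left out was not tested.

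The number of names called was 1, and 0 with the replicate block and with rows as deposited, 8 without a filter, 6 with DESeq2's Wald test and 2 with the replicate block and GC correction. It ran from 0 to 1 with a library left out. The names with an unadjusted p under 0.05 numbered 48 with the block and 59 with rows as deposited. The cause was not tested.

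Among other miRNAs the GC correction turned miR-199a-3p to -0.28, miR-212-3p to 0.10, miR-29a-3p to -0.046 and miR-423-3p to 0.091. With the block added these were -0.28, 0.16, -0.0043 and 0.12, and miR-199a-5p was 0.0097. Total count scaling turned miR-125b-5p to -0.17, miR-199a-3p to -0.0055 and miR-212-5p to -0.086. Rat names alone gave -0.011 for miR-125b-5p. The authors' scaling gave 0.029 for miR-27b-3p, and no filter gave 0.073 for it and 0.026 for miR-212-3p. With a library left out miR-132-3p ran from -0.37 to 0.21, miR-199a-3p from -0.11 to 0.37, miR-212-3p from -0.24 to 0.11, miR-212-5p from -0.024 to 0.35 and miR-27b-3p from -0.12 to 0.076. Few counts of miR-22-5p, from 32 to 216, limit its precision.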
